A study of Mus musculus with 23 samples.

Results

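Megakaryocyte progenitors (MkP) from wild-type (WT) mouse bone marrow were set against long-term hematopoietic stem cells (LT-HSC) of the same genotype. The members are 6 of the 23 libraries of the series: 3 WT MkP libraries (numbered 30, 31 and 32) and 3 WT LT-HSC libraries (30, 31 and 32), made with SMART-Seq v2, together with 14281 of 24454 genes that passed a filter on low counts. All 6 libraries came from mice labelled C57BL/6 and female, which had received tamoxifen for 5 days, 12 weeks before tibia and femur marrow was taken. Ages, the number of mice per library and whether libraries with the same number came from the same mouse are not known here. P-values therefore rest on spread between libraries. For the main comparison that spread was estimated over 12 SMART-Seq v2 libraries, these 6 and 6 of the V617F genotype described below. It was smaller than the spread between the 6 WT libraries alone. Cells were sorted by surface markers. MkP lacked lineage markers and Sca-1 and carried Kit, CD150 and CD41. LT-HSC lacked lineage markers and CD48 and carried Kit, Sca-1 and CD150. The same populations from C57BL/6 mice of genotype SclCre;V617F, in which tamoxifen switches on JAK2-V617F (3 MkP libraries labelled female, 3 LT-HSC libraries labelled male; Scl is a gene of blood stem and progenitor cells) were used to see whether the WT differences recur in other libraries. WT HSC split by CD41 (2 CD41-positive and 3 CD41-negative SMART-Seq v4 libraries, all labelled female) were read beside them. The WT mice had the same tamoxifen course as the V617F mice.

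LT-HSC sit at the top of blood formation and are mostly out of cycle, held there by a set of stem cell transcription factors and by signals from the marrow niche. Megakaryocytes make platelets; their progenitors switch on receptors for von Willebrand factor, fibrinogen and thrombin, the contents of the platelet granules, and the transcription factor GATA1. HSC marked by CD41 or von Willebrand factor carry part of the same platelet gene set, and MkP can arise from stem cells directly as well as through intermediate progenitors.

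The MkP libraries held 41128677, 40249518 and 30927779 counts in genes, against 34642290, 37107904 and 49191435 counts in the LT-HSC libraries. In MkP 12463, 11483 and 12039 genes had at least 1 count, against 12876, 13805 and 13413 genes in LT-HSC. The means were 11995 ± 491 in MkP and 13365 ± 466 in LT-HSC (SD, n = 3 each), a difference of -1369.67 genes, and the groups did not overlap (exact two-sided permutation test, p = 0.1, the smallest p that 3 against 3 allows). Among 9364 genes with a mean of at least 10 CPM (a gene's count relative to the scaled total of its library), 1.21%, 3.95% and 2.10% had no count in the MkP libraries, against 0.854%, 0.150% and 0.278% in the LT-HSC libraries. LT-HSC library 30 stood apart: its rank correlation across genes was 0.801 and 0.805 with the other LT-HSC libraries, which reached 0.909 with each other, and its 10 most abundant genes took 8.55% of its counts. The MkP libraries correlated at 0.869 to 0.907 with each other.

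The genes of the sort followed the gate, and are given without a test. Itga2b, which encodes CD41, had 1734, 1727 and 1400.3 CPM in MkP, against 31.1, 223 and 142 CPM in LT-HSC. Ly6a, which encodes Sca-1, had 2.47, 0.723 and 0.686 CPM in MkP, against 525, 70.7 and 179 CPM in LT-HSC. Cd48, which the LT-HSC gate excludes, had 42.3, 63.2 and 91.2 CPM in MkP, against 15.7, 2.69 and 12.2 CPM in LT-HSC. Kit and Slamf1 (CD150), shared by both gates, overlapped: Kit had 513, 476 and 634 CPM in MkP, against 153, 1037 and 930.4 CPM in LT-HSC, and Slamf1 had 29.6, 80.9 and 54.7 CPM in MkP, against 21.9, 23.4 and 42.7 CPM in LT-HSC. The labels of both populations thus matched their defining markers.

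The spread between libraries differed between genotypes. The common dispersion of the counts was 1.17 in the 6 WT libraries (a coefficient of variation of 108%) and 0.112 in the 6 V617F libraries (33.5%); it was 1.32 in WT MkP and 1.10 in WT LT-HSC. The comparison was fitted on all 12 SMART-Seq v2 libraries, which share an estimate of the spread (0.619), so the fit sees a smaller spread than the WT libraries have themselves. A gene was called at a Benjamini-Hochberg adjusted p under 0.05 in edgeR's quasi-likelihood test. In this fit 331 genes (2.32% of those tested) were higher in MkP and 940 (6.58%) were lower. With the 6 WT libraries alone, 7 genes (0.057% of 12291) were higher and 7 (0.057%) lower, while 434 and 922 passed an unadjusted p under 0.05. DESeq2 on those 6 libraries called 190 higher and 473 lower, and limma-voom 38 and 127. Without LT-HSC library 30 the 12-library counts were 487 higher and 1139 lower. The calls below are those of the 12-library fit, and each list is read beside its calls in the V617F libraries.

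The 14 genes that passed with the WT libraries alone were all called in the 12-library fit and, in the same direction, in the V617F libraries alone. Those higher in MkP were Pf4 (platelet factor 4), F2rl2 (protease-activated receptor 3), Serpine2 (a serine protease inhibitor), Kcnj5 (a potassium channel subunit), Mfsd2b (the sphingosine-1-phosphate exporter of platelets and red cells), Slc14a1 (a urea transporter) and Prss34 (a mast cell and basophil protease). Slc14a1 had 1182, 1534 and 1303 CPM in MkP, against 103, 59.0 and 99.0 CPM in LT-HSC. Mfsd2b had 577, 763 and 596 CPM in MkP, against 4.27, 20.4 and 24.9 CPM in LT-HSC. Those lower in MkP were Procr (EPCR, a surface marker of HSC), Cd74 (the MHC class II invariant chain), Efna1 (an ephrin), Sult1a1 (a sulfotransferase), Pygm (muscle glycogen phosphorylase), Tinagl1 and Gm4951. Pygm had 0.0757, 0.0748 and 0.0327 CPM in MkP, against 15.8, 84.7 and 113 CPM in LT-HSC.

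Calls in the 2 directions differed in kind. Of the 331 genes higher in MkP, 32 had no count in any LT-HSC library, and 312 had groups that did not overlap; over all tested genes the MkP libraries lay wholly above the LT-HSC libraries for 1198. Of the 940 genes lower in MkP, 466 (49.6%) had no count in any MkP library, and 760 had groups that did not overlap, beside 1734 of all tested genes with MkP wholly below. The genes at 0 in MkP were mostly of low level: 245 of the 290 lower calls under 5 CPM were at 0 in MkP, against 2 of the 229 lower calls at 100 CPM or more. The 466 genes had a median of 0.783 CPM in V617F MkP and 4.61 CPM in WT LT-HSC, and 362 of them had counts in all 3 V617F MkP libraries. V617F libraries detected more genes than WT libraries in both populations, 14953 ± 281 in MkP and 15547 ± 217 in LT-HSC (SD, n = 3 each), and the part this plays was not tested. Over all tested genes 1426 were at 0 in WT MkP and 501 in WT LT-HSC. Among the calls with counts on both sides, the median absolute log2 difference was 2.05 for 299 genes higher in MkP and 2.58 for 474 lower. The median log2 difference of all tested genes was -0.20, which is the level the changes below stand against.

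**Figure D1:**
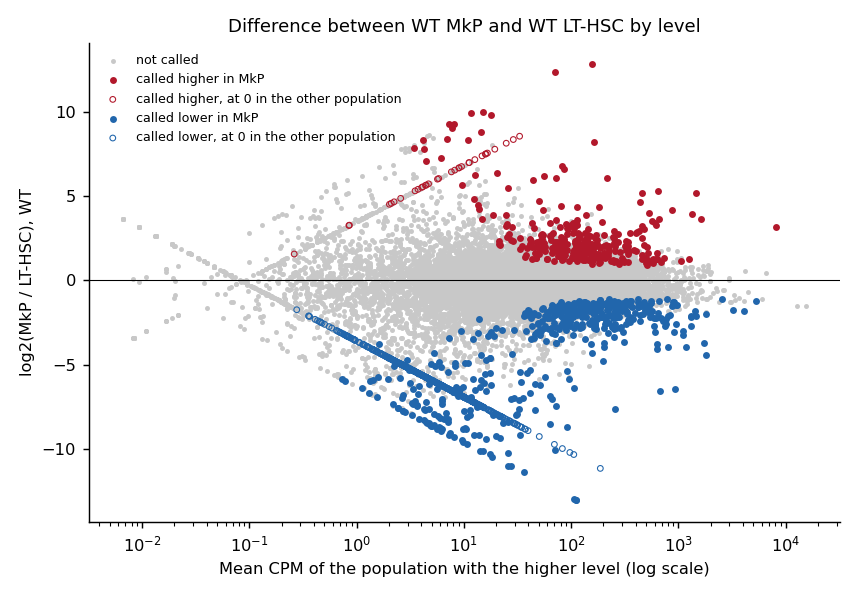
Each point is a tested gene; the x axis gives the mean CPM of the population with the higher level (log scale) and the y axis log2(MkP / LT-HSC) in WT, for genes at 0 in all libraries of a population as a bound against 3 counts per library. Open rings are called genes at 0 in the other population: 466 lie below 0 and 32 above it, most of the lower ones under 20 CPM.

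A minority of the platelet genes passed the test, most of them higher in MkP. Beside 2.32% of all tested genes called higher and 6.58% called lower, 3 platelet lists held 18 higher and 3 lower calls: 8 and 1 of 26 receptors and adhesion genes, 6 and 1 of 26 granule and secretion genes, and 4 and 1 of 29 cytoskeleton and signalling genes. All 18 higher calls recurred in the V617F libraries alone, where 7.89% of all tested genes were called higher and 14.0% lower. There 15, 14 and 13 members of the 3 lists were higher. None of the 3 lower calls recurred. Of all WT calls, 72.2% of those higher and 58.4% of those lower were called the same way there. The median log2 difference was 1.26, 0.62 and 0.75 in the 3 lists (0.95 and 0.80 for granules and signalling with genes at 0 at their bound), against -0.20 over all tested genes. In these bulk libraries more cells of a kind and more RNA per cell cannot be told apart.

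Promoters are shown for the 4 genes of the platelet and transcription factor lists called higher that had the highest mean CPM in MkP, not corrected for length, to show the regulatory sequence of abundant genes that moved together. Pf4, Plek, Rap1b and Tuba8 are given 5′ to 3′ on the strand of the gene, from 250 bases before to 50 bases after the transcription start listed first in RefSeq (GRCm38.p6). Capitals mark the GATA motif, searched as AGATAA and TGATAA, and the ETS motif, searched as CGGAAG and AGGAAG, each on both strands; no match overlaps another in these windows.
Pf4, chr5:90772185-90772484, plus strand: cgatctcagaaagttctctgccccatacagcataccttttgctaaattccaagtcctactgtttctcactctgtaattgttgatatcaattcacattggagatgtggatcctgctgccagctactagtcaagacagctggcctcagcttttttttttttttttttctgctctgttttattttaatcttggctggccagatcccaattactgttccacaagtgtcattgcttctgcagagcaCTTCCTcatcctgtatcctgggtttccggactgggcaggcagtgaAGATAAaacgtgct
Plek, chr11:17008669-17008968, minus strand: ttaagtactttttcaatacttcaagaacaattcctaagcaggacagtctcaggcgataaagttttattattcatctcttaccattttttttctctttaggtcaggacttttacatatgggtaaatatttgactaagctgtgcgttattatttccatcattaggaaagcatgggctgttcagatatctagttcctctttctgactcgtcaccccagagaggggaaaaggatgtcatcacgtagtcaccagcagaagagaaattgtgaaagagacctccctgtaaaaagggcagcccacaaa
Rap1b, chr10:117845925-117846224, minus strand: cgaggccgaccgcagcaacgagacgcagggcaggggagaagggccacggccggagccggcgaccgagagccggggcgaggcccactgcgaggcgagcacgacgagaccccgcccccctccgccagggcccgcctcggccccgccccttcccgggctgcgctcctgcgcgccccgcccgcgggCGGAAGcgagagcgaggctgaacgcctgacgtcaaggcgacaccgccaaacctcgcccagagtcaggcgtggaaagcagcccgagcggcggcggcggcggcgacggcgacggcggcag
Tuba8, chr6:121210484-121210783, plus strand: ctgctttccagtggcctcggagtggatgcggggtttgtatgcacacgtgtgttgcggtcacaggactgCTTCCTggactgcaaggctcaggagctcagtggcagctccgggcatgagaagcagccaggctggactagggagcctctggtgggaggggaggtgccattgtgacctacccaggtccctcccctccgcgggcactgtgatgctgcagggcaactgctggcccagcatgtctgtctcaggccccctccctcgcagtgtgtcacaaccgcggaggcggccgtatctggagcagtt
The Pf4 window holds 1 GATA and 1 ETS match, those of Rap1b and Tuba8 1 ETS match each, and that of Plek neither. Of 11177 tested genes with a promoter in the table, 10.6% held a GATA match and 54.4% an ETS match. The shares were 9.96% and 48.0% among 271 genes called higher, and 11.3% and 47.6% among 710 called lower. Of the 18 genes of the platelet and transcription factor lists called higher that had a promoter in the table, 4 held a GATA match and 13 an ETS match, beside 15 and 50 of 82 tested members of these lists. A match is a run of letters and not a measured binding site.

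Granule and secretion genes are given next. Pf4, the chemokine of platelet alpha granules, had 1334, 1559 and 1512 CPM in MkP, against 60.5, 25.8 and 37.3 CPM in LT-HSC. Its log2 difference was 5.16 ± 0.41 (SE; edgeR adjusted p = 4.92e-05). The MkP libraries lay close together and far above all LT-HSC libraries. Serpine2, which inhibits thrombin and plasminogen activators, had 355, 501 and 459 CPM in MkP, against 23.4, 19.8 and 10.2 CPM in LT-HSC (log2 difference 4.62 ± 0.48, SE; edgeR adjusted p = 0.000299). Plek, the protein kinase C substrate pleckstrin, had 731, 755 and 1132 CPM in MkP, against 22.1, 22.1 and 98.5 CPM in LT-HSC. Vwf, the carrier and adhesion protein von Willebrand factor, had 384, 426 and 263 CPM in MkP, against 36.1, 70.5 and 47.6 CPM in LT-HSC. Its log2 difference was 2.80 ± 0.33 (SE; edgeR adjusted p = 0.000606), and Vwf RNA was present in all 3 LT-HSC libraries. Timp3 (a metalloprotease inhibitor) and Rab27b (a GTPase of dense granule secretion) were also called, at log2 differences of 3.44 and 2.27. These 6 calls held with each of the 6 WT libraries left out in turn, in fits that keep the V617F libraries. With the 6 WT libraries alone edgeR called 2 of them, and limma-voom and DESeq2 all 6. Rab38, a GTPase of dense granule biogenesis, was the lower call, with 163, 199.6 and 221 CPM in MkP, against 685, 332 and 430.3 CPM in LT-HSC; it was lost without any one of the MkP libraries (adjusted p up to 0.0826) and was not called in the V617F libraries alone. The other granule genes did not pass. Ppbp, the precursor of a platelet chemokine, had 1.66, 30.8 and 21.4 CPM in MkP, against 19.1, 0.510 and 13.9 CPM in LT-HSC, with overlapping groups. F13a1, a coagulation factor subunit, had 123, 94.9 and 244 CPM in MkP, against 4.88, 0.0283 and 25.1 CPM in LT-HSC (edgeR adjusted p = 0.0922).

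Among receptors, F2rl2 and F2r, genes of protease-activated receptors, and 3 of 4 genes of the von Willebrand factor receptor were higher in MkP. F2rl2, protease-activated receptor 3, had 359.8, 362 and 663 CPM in MkP, against 15.5, 11.9 and 11.3 CPM in LT-HSC (log2 difference 5.16 ± 0.40, SE; edgeR adjusted p = 4.92e-05). F2r, protease-activated receptor 1, had 590.4, 530.2 and 588 CPM in MkP, against 6.83, 67.3 and 73.0 CPM in LT-HSC. Of the 4 genes of the glycoprotein Ib-IX-V complex, which binds von Willebrand factor, Gp5, Gp1bb and Gp1ba were called. Gp5 had 517, 641 and 447 CPM in MkP, against 12.7, 16.3 and 71.4 CPM in LT-HSC (log2 difference 4.0 ± 0.61, SE; edgeR adjusted p = 0.00245). Gp1bb had 43.8, 181 and 23.9 CPM in MkP, against 0.122, 1.02 and 1.05 CPM in LT-HSC, and Gp1ba had 141, 171 and 189.6 CPM in MkP, against 12.4, 39.5 and 35.5 CPM in LT-HSC. The groups did not overlap for any of the 3, beside 1198 of all 14281 tested genes with MkP wholly above. Gp9, the remaining subunit, had 120.3, 99.8 and 103 CPM in MkP, against 65.4, 34.3 and 33.1 CPM in LT-HSC; its groups did not overlap either, but the test missed the threshold (edgeR adjusted p = 0.0563). Itgb3, the beta chain of the fibrinogen receptor, had 199, 192 and 40.6 CPM in MkP, against 23.1, 16.4 and 13.3 CPM in LT-HSC. P2ry1, an ADP receptor, and Selp, the granule membrane protein P-selectin, were called too, but P2ry1 was lost without MkP library 31 or LT-HSC library 31 and Selp without MkP library 31 or 32 or LT-HSC library 31 (adjusted p up to 0.0586 and 0.11).

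Other platelet genes missed the threshold or were lower in MkP. Cd9, a tetraspanin, had 596, 653 and 692 CPM in MkP, against 644, 99.7 and 209 CPM in LT-HSC, so that only LT-HSC library 30 reached the MkP level. Treml1, a receptor stored in alpha granules, had 144, 116 and 79.1 CPM in MkP, against 26.7, 0.227 and 0 CPM in LT-HSC (edgeR adjusted p = 0.145). Cd36, a thrombospondin receptor, was at 0 in all 3 MkP libraries and had 0, 4.02 and 5.69 CPM in LT-HSC, a call that was lost without any one of the MkP libraries (adjusted p up to 0.0613). Tubb1, the beta tubulin of late megakaryocytes and platelets, was likewise at 0 in MkP and had 0, 0.283 and 6.79 CPM in LT-HSC; it was lost without LT-HSC library 32 or any MkP library (adjusted p up to 0.0815). In the V617F libraries Tubb1 averaged 3.96 ± 0.894 CPM in MkP and 1.61 ± 0.940 CPM in LT-HSC (SD, n = 3 each).

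In the signalling and cytoskeleton list, Rap1b, the GTPase that activates the fibrinogen receptor, had 485, 807 and 668 CPM in MkP, against 15.5, 35.4 and 107 CPM in LT-HSC (log2 difference 3.63 ± 0.63, SE; edgeR adjusted p = 0.00507). Tuba8, an alpha tubulin of megakaryocytes, had 702, 609 and 514 CPM in MkP, against 122, 33.0 and 21.1 CPM in LT-HSC (log2 difference 3.37). Rasgrp2, the exchange factor for RAP1, had 145, 171 and 157 CPM in MkP, against 81.8, 94.9 and 60.6 CPM in LT-HSC. The Rasgrp2 call was lost without any MkP library or LT-HSC library 32 (adjusted p up to 0.11), and that of Tpm4, a tropomyosin, without MkP library 31 or LT-HSC library 30 or 32 (adjusted p up to 0.126).

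**Figure D2:**
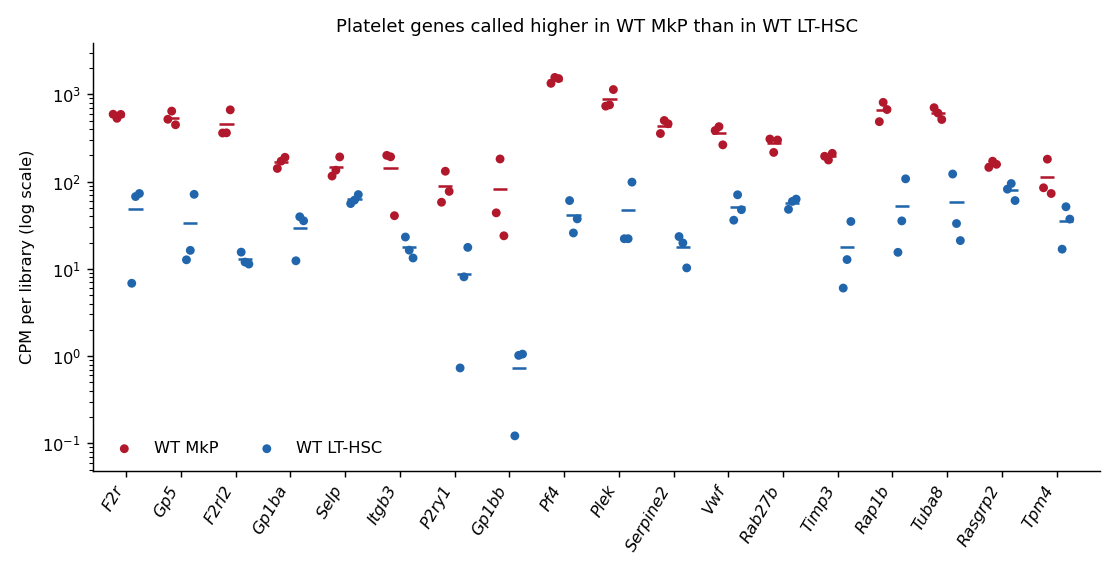
CPM per library (log scale) of the 18 platelet-list genes called higher in WT MkP (red, left) than in WT LT-HSC (blue, right); bars are means of 3 libraries, and genes run from receptors (F2r to Gp1bb) over granule genes (Pf4 to Timp3) to signalling genes (Rap1b to Tpm4). The groups do not overlap for any of the 18 genes, nor for 312 of all 331 genes called higher. MkP lie wholly above LT-HSC for 1198 of all 14281 tested genes. Pf4 sits between 1334 and 1559 CPM in MkP.

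The CD41-split HSC libraries were made with another kit, so their levels are not set against those of the MkP libraries, and the comparison is read on its own. Of the 331 genes higher in MkP, 321 were tested there, 273 (85.0%) were higher in CD41-positive than in CD41-negative HSC, beside 48.1% of all genes, and 203 were called so (2277 genes were called higher and 2640 lower, together 34.0% of those tested). Pf4 averaged 609 CPM in CD41-positive and 23.4 CPM in CD41-negative HSC, F2rl2 66.6 and 4.48 CPM, and Vwf 489 and 149.8 CPM. Of the 940 genes lower in MkP, 921 were tested, 771 (83.7%) were lower in CD41-positive HSC, beside 51.9% of all genes, and 409 were called so. The median log2 difference in the CD41 split was 0.83 for the genes higher in MkP and -0.65 for those lower. Without CD41-positive library 3 or 4 the number of genes called in that comparison fell to 1949 and 1215, against 4917 with both.

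Of 28 tested transcription factors of the megakaryocyte and erythroid lineages, 4 were called higher and 2 lower, with a median log2 difference of 0.19. Over all tested genes 2.32% were called higher and 6.58% lower, and the 2 lower calls are near the latter share. In the V617F libraries alone, 3 of the 4 and both lower calls were called the same way. Gata1, the factor that drives both lineages, had 442, 373 and 427 CPM in MkP, against 111, 19.2 and 40.6 CPM in LT-HSC (log2 difference 2.86 ± 0.52, SE; edgeR adjusted p = 0.00681). Mef2c, a MADS-box factor, had 439, 488 and 497 CPM in MkP, against 78.5, 72.3 and 176 CPM in LT-HSC (log2 difference 2.12). Both kept their call with any library left out. Mafk, a small Maf partner of NFE2, was also higher; it was the call that did not recur in V617F, and it was lost without MkP library 30 or 31 or LT-HSC library 30 or 32 (adjusted p up to 0.0809). Lyl1, a basic helix-loop-helix factor of stem and progenitor cells, had 106, 105 and 105 CPM in MkP, against 494, 511 and 312 CPM in LT-HSC (log2 difference -2.06 ± 0.29, SE; edgeR adjusted p = 0.00159). Erg, an ETS factor of HSC, had 27.9, 20.8 and 21.6 CPM in MkP, against 75.6, 72.9 and 63.9 CPM in LT-HSC (log2 difference -1.59). Fli1, Runx1 and Gata2, which serve both stem cells and megakaryocytes, did not pass. Fli1 had 455, 485 and 269 CPM in MkP, against 78.3, 335 and 176 CPM in LT-HSC. Nfe2, needed for platelet release, had 849.9, 942 and 769 CPM in MkP, against 2647, 1749 and 1048 CPM in LT-HSC (edgeR adjusted p = 0.0597).

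Of 39 tested stem cell identity genes, 14 were called lower and none higher, beside 6.58% and 2.32% of all tested genes. A negative log2 difference was found for 35, with a median of -2.21 against -0.20 over all tested genes. In the V617F libraries alone 12 of the 14 were called lower as well. Procr had 0, 0 and 0.0327 CPM in MkP (1 count in all), against 192, 56.9 and 85.5 CPM in LT-HSC (edgeR adjusted p = 3.06e-05). Fgd5, an exchange factor used to mark HSC, was at 0 in all MkP libraries, against 34.2, 20.05 and 49.5 CPM in LT-HSC, at least 417.6-fold lower in MkP on a floor of 3 counts per library. Sult1a1 was at 0 in MkP, against 296, 65.2 and 201 CPM in LT-HSC, at least 2264-fold lower. In V617F mice MkP held low levels of these genes, 2.09 ± 0.390 CPM of Fgd5 and 2.08 ± 1.48 CPM of Sult1a1, against 30.3 ± 9.29 and 104 ± 24.0 CPM in V617F LT-HSC (SD, n = 3 each). Hlf, a factor that keeps HSC quiescent, had 14.6, 29.7 and 45.2 CPM in MkP, against 101, 137 and 173 CPM in LT-HSC (log2 difference -2.20 ± 0.42, SE; edgeR adjusted p = 0.00807). Mecom and Mllt3, factors of HSC self-renewal, did not pass: Mecom had 30.8, 0 and 8.20 CPM in MkP, against 12.4, 146 and 209 CPM in LT-HSC, and Mllt3 had 14.7, 46.7 and 46.1 CPM in MkP, against 63.8, 78.0 and 229 CPM in LT-HSC (edgeR adjusted p = 0.167 and 0.0556). Of the 14 calls, 10 held with any WT library left out, in fits that keep the V617F libraries. Among the others, Txnip, Pdzk1ip1 and Nupr1 were each lost without any MkP library (adjusted p up to 0.0866, 0.0582 and 0.0865). Txnip was also lost without LT-HSC library 32 and Nupr1 without LT-HSC library 30. With the 6 WT libraries alone edgeR called 2 of the 14, limma-voom 7 and DESeq2 11.

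Promoters are shown for the stem cell identity genes called lower with the highest mean CPM in LT-HSC, Ifitm1 and Gimap1, in the same window and marking. They stand beside the platelet promoters because their genes moved the other way.
Ifitm1, chr7:140967826-140968125, plus strand: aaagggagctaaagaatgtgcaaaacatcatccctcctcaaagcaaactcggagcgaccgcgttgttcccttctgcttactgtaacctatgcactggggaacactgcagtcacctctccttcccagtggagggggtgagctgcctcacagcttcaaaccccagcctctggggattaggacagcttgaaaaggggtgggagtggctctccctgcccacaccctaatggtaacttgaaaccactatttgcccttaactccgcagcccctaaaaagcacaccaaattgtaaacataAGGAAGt
Gimap1, chr6:48738797-48739096, plus strand: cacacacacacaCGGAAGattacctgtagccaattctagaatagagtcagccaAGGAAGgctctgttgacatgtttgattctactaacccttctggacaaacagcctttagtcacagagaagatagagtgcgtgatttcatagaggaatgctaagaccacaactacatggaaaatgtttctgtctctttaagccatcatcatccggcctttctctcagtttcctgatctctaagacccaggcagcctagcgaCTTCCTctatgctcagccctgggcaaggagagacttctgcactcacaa
Ifitm1, an interferon-induced membrane protein, had 67.5, 91.1 and 95.2 CPM in MkP, against 3749, 677 and 1004 CPM in LT-HSC (log2 difference -4.42 ± 0.64, SE; edgeR adjusted p = 0.00177). Gimap1, a GTPase of the immunity-associated protein family, had 153, 139.8 and 127 CPM in MkP, against 1665, 1050.0 and 579 CPM in LT-HSC (log2 difference -2.97 ± 0.38, SE; edgeR adjusted p = 0.000845). In both, LT-HSC library 30 was the highest, and both calls held without it. The Ifitm1 window holds 1 ETS match and that of Gimap1 holds 3, and neither has a GATA match.

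Of 13 tested Hox genes, homeobox factors active in stem and progenitor cells, 5 were called lower and none higher: Hoxa9, Hoxa10, Hoxb5, Hoxa2 and Hoxb6. Over all tested genes 6.58% were called lower and 2.32% higher. Hoxa9 had 21.1, 29.1 and 64.3 CPM in MkP, against 67.0, 201 and 121 CPM in LT-HSC. Hoxa10 had 11.4, 6.76 and 11.5 CPM in MkP, against 34.0, 63.5 and 26.6 CPM in LT-HSC. Hoxb5, a marker of LT-HSC, had 1.31, 4.36 and 3.10 CPM in MkP, against 38.2, 20.8 and 9.39 CPM in LT-HSC. Groups did not overlap for Hoxa9, Hoxa10 and Hoxb5, beside 1734 of all 14281 tested genes with MkP wholly below. All 5 genes were called lower in the V617F libraries alone, beside 14.0% of all genes tested there. Each of the 5 WT calls was lost when some single library was left out, Hoxa9 without MkP library 30 or 31 or LT-HSC library 31 (adjusted p up to 0.101), Hoxa10 without MkP or LT-HSC library 31 (up to 0.0727) and Hoxb5 without MkP library 30 or 32 or LT-HSC library 30 or 31 (up to 0.0805). Hoxa2 and Hoxb6, at 0 in all MkP libraries, were lost without any MkP library or LT-HSC library 31, Hoxb6 also without LT-HSC library 30 (up to 0.0677 and 0.0849).

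Of 8 tested MHC class II genes, which present antigen, 5 were called lower, beside 6.58% of all tested genes. All 8 had a negative log2 difference, and the median was -2.77. The summed level was 514 to 619 CPM in MkP and 2455 to 6031 CPM in LT-HSC. Cd74 had 77.4, 46.2 and 104 CPM in MkP, against 1442, 902 and 1166 CPM in LT-HSC (log2 difference -3.95 ± 0.40, SE; edgeR adjusted p = 0.000296). H2-Eb1 had 11.2, 21.3 and 7.84 CPM in MkP, against 261, 195.3 and 158 CPM in LT-HSC. H2-Ab1 had 128, 111 and 108 CPM in MkP, against 1868, 789.6 and 671 CPM in LT-HSC. All 5 were lower in the V617F libraries alone. The 5th call, H2-DMb1, was lost without any MkP library or LT-HSC library 30 (adjusted p up to 0.119).

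**Figure D3:**
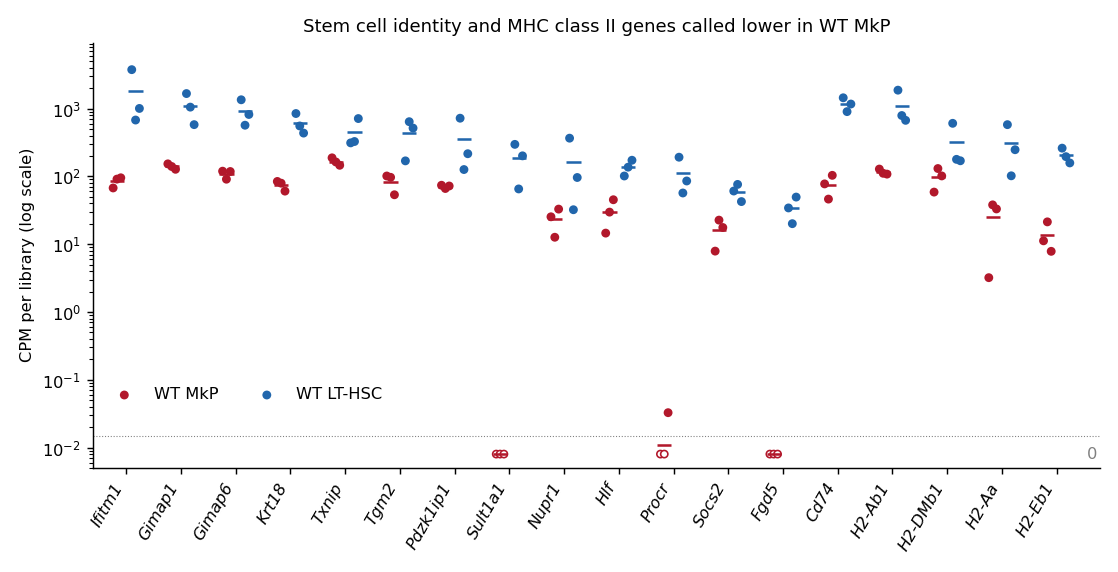
CPM per library (log scale) of 13 stem cell identity genes (Ifitm1 to Fgd5) and 5 MHC class II genes (Cd74 to H2-Eb1) called lower in WT MkP (red, left) than in WT LT-HSC (blue, right); bars are means of 3 libraries and open rings below the dotted line are libraries at 0. Sult1a1 and Fgd5 are at 0 in all 3 MkP libraries, and LT-HSC library 30 is the highest blue point for Ifitm1.

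Members of the lymphoid and interferon lists that passed were lower in MkP, with 1 exception. Ifi209, which is not on these lists, was called higher in MkP and is named with the largest differences below. Of 11 tested lymphoid priming genes, 3 were lower and 1 higher, beside 6.58% and 2.32% of all tested genes. The 3 recurred in the V617F libraries alone. Ltb, lymphotoxin beta, had 2.72, 21.4 and 7.35 CPM in MkP, against 1611, 780.2 and 376 CPM in LT-HSC (log2 difference -6.46 ± 0.80, SE; edgeR adjusted p = 0.000773). Gimap4 was at 0 in MkP, against 9.32, 7.05 and 11.5 CPM in LT-HSC, at least 112-fold lower in MkP. Satb1, a chromatin organizer of lymphoid cells, had 0, 0 and 0.0327 CPM in MkP, against 0, 7.30 and 10.8 CPM in LT-HSC, and was lost without any MkP library (adjusted p up to 0.068). Dntt, the DNA polymerase of antigen receptor joining, went the other way: 26.5, 16.6 and 10.8 CPM in MkP, against 0, 0 and 0.0398 CPM in LT-HSC (1 count in all; edgeR adjusted p = 0.00245). In V617F mice Dntt averaged 0.367 ± 0.262 CPM in MkP and 1.09 ± 0.474 CPM in LT-HSC (SD, n = 3 each), and the WT difference did not recur there. Of 39 interferon response genes, 6 were lower, beside 6.58% of all tested genes. A negative log2 difference was found for 37, with a median of -1.56. All 6 recurred in the V617F libraries alone, where 24 were lower, beside 14.0% of all genes tested there. Ifit3, an interferon-induced RNA-binding protein, was at 0 in MkP, against 25.9, 22.5 and 38.9 CPM in LT-HSC, at least 351-fold lower in MkP. Irf1, an interferon regulatory factor, had 9.31, 49.3 and 10.5 CPM in MkP, against 79.6, 227 and 206 CPM in LT-HSC. The interferon calls of Ifit3, Irf1 and Igtp held with any library left out, and those of Gbp4 (without MkP library 30), Oasl2 (without MkP or LT-HSC library 31 or 32) and Iigp1 (without MkP library 30 or 32 or LT-HSC library 32) did not (adjusted p up to 0.0537, 0.0954 and 0.0828).

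Of 34 tested mitosis genes, 19 were called higher and none lower, beside 2.32% and 6.58% of all tested genes. A positive log2 difference was found for 33. The MkP libraries lay wholly above the LT-HSC libraries for 27, beside 1198 of 14281 tested genes. The median log2 difference was 1.67. Summed over the list, MkP libraries had 7072, 7065 and 7109 CPM, against 2879, 2675 and 2272 CPM in LT-HSC. Mki67, the Ki-67 antigen of cycling cells, had 307, 372 and 338 CPM in MkP, against 52.9, 79.8 and 113 CPM in LT-HSC (log2 difference 2.05 ± 0.32, SE; edgeR adjusted p = 0.00303). Ccnb1, cyclin B1, had 226, 268 and 260.5 CPM in MkP, against 37.1, 27.3 and 65.6 CPM in LT-HSC (log2 difference 2.54 ± 0.34, SE; edgeR adjusted p = 0.00118). Bub1b, a spindle checkpoint kinase, had 251, 258 and 309 CPM in MkP, against 23.5, 60.5 and 37.7 CPM in LT-HSC. Top2a, a topoisomerase of dividing cells, had 453, 637 and 456 CPM in MkP, against 128, 113 and 158 CPM in LT-HSC. In the V617F libraries alone 31 of the 34 were higher, among them 18 of the 19, beside 7.89% of all genes tested there. Of the 19 calls, 11 held with any WT library left out, in fits that keep the V617F libraries. With the 6 WT libraries alone edgeR called none of the 19, limma-voom 2 and DESeq2 14. Cdc25b was lost without any library but LT-HSC library 32 and Mad2l1 without any but LT-HSC library 30 (adjusted p up to 0.103 and 0.15), Kif4 and Prc1 without MkP library 30 or 31 or LT-HSC library 31 (up to 0.0687 and 0.0673), Kif2c and Ndc80 without MkP library 30 or 32 (up to 0.0638 and 0.0728), Kif11 without MkP library 30 or 31 (up to 0.0537) and Cenpe without MkP library 32 (up to 0.0616).

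Of 38 tested DNA replication genes, 33 had a positive log2 difference, with a median of 0.74. Among them 5 were called higher and none lower, beside 2.32% and 6.58% of all tested genes. Of the 5, 3 were also called higher in the V617F libraries alone, and Prim2 and Mcm7 were not. Cdc6, which loads the replicative helicase, had 163, 259.5 and 138 CPM in MkP, against 35.9, 62.1 and 49.5 CPM in LT-HSC (log2 difference 1.93 ± 0.34, SE; edgeR adjusted p = 0.00577), and it was the 1 call of the 5 that held with any library left out. Pole2, Prim2, Mcm5 and Mcm7 were the others (adjusted p up to 0.0678, 0.0918, 0.102 and 0.109 with a library left out; MkP library 31 ended the calls of Pole2, Prim2 and Mcm7, and MkP library 32 those of Prim2, Mcm5 and Mcm7). Of 21 cyclins, kinases and CDK inhibitors, 3 were called higher and none lower: Ccne1 and Ccne2, the cyclins that start replication, and Cdk6, a partner of the D cyclins. Ccne1 had 27.5, 81.4 and 53.4 CPM in MkP, against 2.12, 11.8 and 10.3 CPM in LT-HSC. Ccne1 was lost without MkP library 31 (edgeR adjusted p = 0.0532), Ccne2 without any MkP library or LT-HSC library 31 (up to 0.0851) and Cdk6 without any MkP library or LT-HSC library 31 or 32 (up to 0.105). The 3 were higher in the V617F libraries alone.

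Genes of other lineages were read as markers of other cells that the gates could hold. The MkP gate required CD150 and CD41 and excluded lineage markers, and how far it removed granulocyte-macrophage progenitors and mature granulocytes was not tested. Mpo, the myeloperoxidase of primary neutrophil granules, had 9874, 5799 and 8636 CPM in MkP, against 469, 1299.9 and 959 CPM in LT-HSC (log2 difference 3.16 ± 0.63, SE; edgeR adjusted p = 0.0106). Ctsg, cathepsin G, had 462, 374 and 382 CPM in MkP, against 67.6, 37.2 and 68.2 CPM in LT-HSC; it was lost without MkP library 30 or LT-HSC library 31 (adjusted p up to 0.0601). Elane, neutrophil elastase, had 1126, 674 and 1093 CPM in MkP, against 487, 195.2 and 193 CPM in LT-HSC (edgeR adjusted p = 0.138). Ngp and Camp, genes of later neutrophil granules, had lower levels in MkP, and only Ngp was called. Ngp had 168, 463 and 388 CPM in MkP, against 2567, 611 and 1237 CPM in LT-HSC. Its call was lost without any MkP library or LT-HSC library 30 (adjusted p up to 0.131). Camp had 66.1, 139 and 115 CPM in MkP, against 640.5, 148 and 366 CPM in LT-HSC (edgeR adjusted p = 0.0713). Of 20 granulocyte genes, 2 were higher and 1 lower, beside 2.32% and 6.58% of all tested genes, so the 1 lower call is near that share. The 2 higher calls but not Ngp recurred in the V617F libraries alone. The log2 difference was negative for 15 of the 20, with a median of -1.14. Their summed level, most of it Mpo in MkP, was 8671 to 12460 CPM in MkP and 4148 to 7263 CPM in LT-HSC, and none was at 0 in all libraries of a population. In V617F mice Mpo averaged 1062 ± 572 CPM in MkP and 87.3 ± 73.8 CPM in LT-HSC (SD, n = 3 each), and in WT CD41-positive HSC it averaged 0.950 CPM, against 27.6 CPM in CD41-negative HSC. The part that granulocytic cells play in the other differences was not tested.

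Of 10 tested mast cell and basophil genes, 6 were higher and 1 lower, beside 2.32% and 6.58% of all tested genes. All 7 were again called in the V617F libraries alone. Prss34 had 40.3, 136 and 35.3 CPM in MkP, against 0, 0.0283 and 0 CPM in LT-HSC (1 count in all; edgeR adjusted p = 0.000788). Mcpt8, a basophil protease, had 14.1, 8.43 and 25.1 CPM in MkP and was at 0 in LT-HSC, at least 178.5-fold higher in MkP. Ms4a2 and Fcer1a, subunits of the IgE receptor, had 15.3, 16.4 and 13.5 CPM and 14.8, 33.5 and 12.6 CPM in MkP, against 0.0407, 0 and 0 CPM and 0, 0 and 0.696 CPM in LT-HSC. Cpa3, a mast cell carboxypeptidase, did not pass, with 32.4, 79.2 and 58.9 CPM in MkP, against 53.0, 5.15 and 13.5 CPM in LT-HSC. Il4, a cytokine of basophils and T cells, was the lower call, at 0 in MkP, against 37.3, 3.17 and 6.15 CPM in LT-HSC. The summed level of the list was 800 to 886 CPM in MkP and 270 to 968 CPM in LT-HSC. Hdc was lost without MkP or LT-HSC library 30 or 32 and Il1rl1 without MkP library 30 or any LT-HSC library (adjusted p up to 0.0808 and 0.0982). The list's median log2 difference was 7.84, or 5.61 with genes at 0 at their bound.

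Of 28 tested erythroid genes, 5 were higher and 1 lower in MkP, beside 2.32% and 6.58% of all tested genes. All 6 were again called in the V617F libraries alone. The median log2 difference of the list was 1.01. Aqp1, a water channel, had 449.6, 499 and 422 CPM in MkP, against 8.42, 92.3 and 47.6 CPM in LT-HSC (log2 difference 3.21 ± 0.65, SE; edgeR adjusted p = 0.012). Hemgn, hemogen, had 126, 94.0 and 116 CPM in MkP, against 23.3, 40.9 and 35.7 CPM in LT-HSC. Cited4, a transcriptional cofactor, had 43.7, 67.4 and 21.4 CPM in MkP, against 0.0407, 1.22 and 0.856 CPM in LT-HSC. Car1, the carbonic anhydrase of early erythroid cells, had 174, 186 and 206 CPM in MkP, against 62.7, 10.5 and 24.6 CPM in LT-HSC, but missed the threshold (edgeR adjusted p = 0.0643). Icam4, an erythroid adhesion protein, had 163, 120.3 and 146 CPM in MkP, against 63.3, 34.5 and 19.4 CPM in LT-HSC, and was lost without MkP library 30 or 32 (adjusted p up to 0.0618). Sptb, beta spectrin, was lost without MkP library 31 or LT-HSC library 31 or 32 (adjusted p up to 0.0668). Klf1, the erythroid factor, had 188, 139 and 127 CPM in MkP, against 134, 60.7 and 25.9 CPM in LT-HSC. The globin gene Hbb-bt was lower, at 1.13, 0.897 and 0.0653 CPM in MkP, against 38.8, 4.33 and 9.07 CPM in LT-HSC, and was lost without MkP library 31 or LT-HSC library 30 (adjusted p up to 0.0655); reads of near-identical globin genes may be split between copies. The summed erythroid level was 3893 to 4088 CPM in MkP and 2591 to 7921 CPM in LT-HSC.

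None of 14 monocyte and macrophage genes and none of 9 endothelial and stromal genes was called. The summed level of the monocyte list was 564 to 724 CPM in MkP and 571 to 2382 CPM in LT-HSC, and that of the endothelial list 14.4 to 57.4 CPM in MkP and 38.0 to 164 CPM in LT-HSC. Of the tested genes, 3 endothelial genes were at 0 in all MkP libraries, and 2 monocyte genes and 1 endothelial gene in all LT-HSC libraries. At an unadjusted p under 0.05 edgeR had 4 monocyte and 5 endothelial genes; DESeq2 called 3 monocyte genes higher and 1 lower, and 1 endothelial gene higher and 4 lower. The endothelial median was -2.72, or 0.66 with genes at 0 at their bound.

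Of 33 cytokine receptor and JAK-STAT genes, 5 were lower and none higher, beside 6.58% and 2.32% of all tested genes. Socs2 and Socs3, feedback inhibitors of cytokine signalling, were lower. Socs2 had 7.89, 22.6 and 17.6 CPM in MkP, against 60.8, 76.1 and 42.5 CPM in LT-HSC (log2 difference -1.90 ± 0.40, SE; edgeR adjusted p = 0.0149). Socs3 was at 0 in MkP, against 0.651, 12.0 and 15.6 CPM in LT-HSC, at least 114-fold lower in MkP; it was the 1 call of the 5 that did not recur in the V617F libraries alone. Il11ra1, Pim2 and Jak3 were called as well. Il11ra1 was lost without MkP library 32 (up to an adjusted p of 0.0519), Pim2 without MkP library 30 or 31 (up to 0.0556) and Jak3 without any library but LT-HSC library 30 (up to 0.11).

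The remaining lists held few calls, which stand beside 2.32% of all tested genes called higher and 6.58% called lower. The ferritin chains Fth1 and Ftl1 were the 2 lower of 17 heme and iron genes, with 945, 797 and 1128 CPM of Fth1 in MkP, against 5256, 2789 and 1683 CPM in LT-HSC; neither recurred in the V617F libraries alone, and both were lost without MkP library 30 or 31, Ftl1 also without 32 (adjusted p up to 0.0653 and 0.0925). Of 20 unfolded protein response genes, the chaperones Calr and Hsp90b1 were higher and Trib3 lower; Hsp90b1 was lost without MkP library 32 and Trib3 without any library but MkP library 32 (adjusted p up to 0.0633 and 0.0742). Calr had 785, 520.1 and 614 CPM in MkP, against 242, 221 and 321 CPM in LT-HSC, and was lost without MkP library 30 (edgeR adjusted p = 0.0574). Hsp90b1 and Trib3 recurred in the V617F libraries alone and Calr did not. Of 21 immediate early genes, Ier3 and Dusp2 were lower and none was higher; Dusp2 was lost without MkP library 31 or 32 (adjusted p up to 0.063). Of 27 ribosome biogenesis genes, Gnl3 and Ddx21 were higher, Gnl3 lost without MkP or LT-HSC library 32 and Ddx21 without MkP library 31 (adjusted p up to 0.0831 and 0.0539); of these, Ddx21 recurred in the V617F libraries alone. Ier3 and Dusp2 both did. None of 38 oxidative phosphorylation, 22 cholesterol synthesis or 17 housekeeping genes was called by edgeR; 2, 4 and 2 had an unadjusted p under 0.05, DESeq2 called 1, 1 and 0, and limma-voom 0, 1 and 0. The oxidative phosphorylation median was -0.52 in WT and 0.39 in V617F mice; LT-HSC library 30 held 29285 CPM over that list, against 12122 and 10353 CPM in the other LT-HSC libraries and 13755 to 15353 CPM in MkP.

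**Figure D4:**
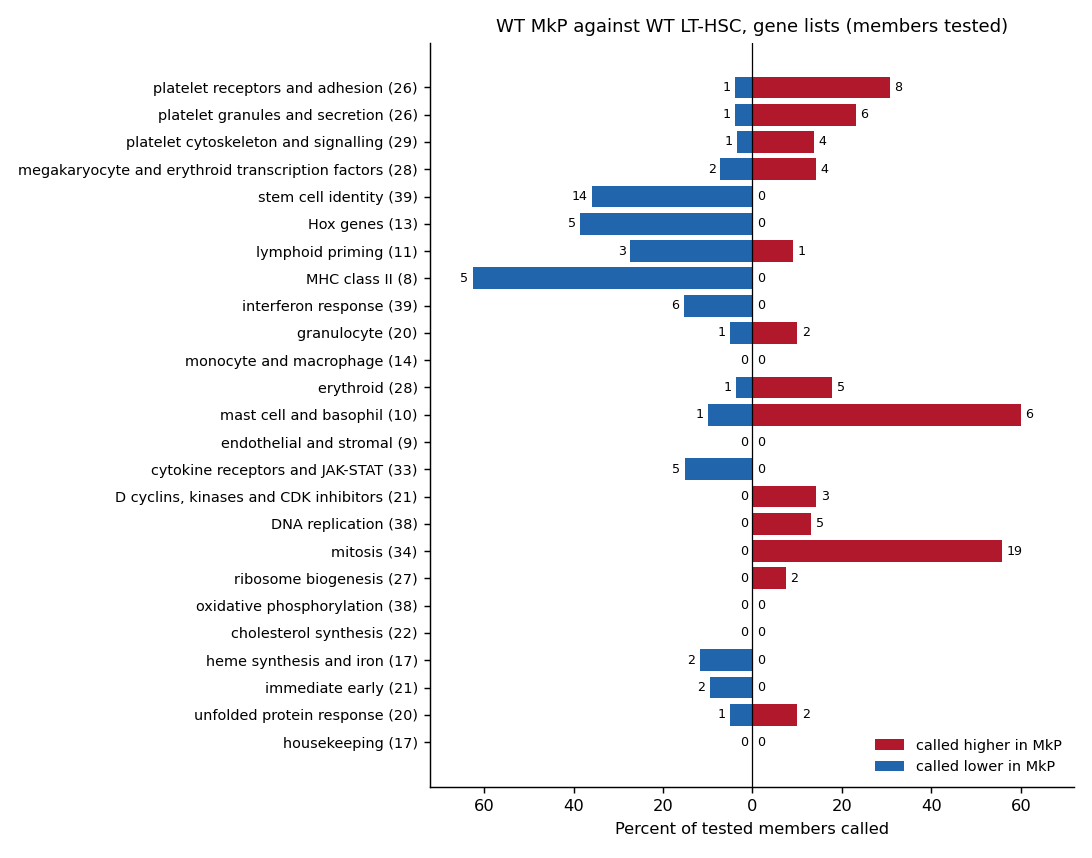
Percent of tested members of each gene list called higher (red, right) or lower (blue, left) in WT MkP than in WT LT-HSC, with the number called beside each bar and the number tested in brackets. Mitosis has 19 of 34 higher and none lower, stem cell identity 14 of 39 lower and none higher. Over all tested genes 2.32% were called higher and 6.58% lower.

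The genes with the largest fitted log2 differences are given next, among non-overlapping genes with at least 10 CPM in the higher population. The fitted value depends on the prior count where a population is at 0, which places many such genes high; at their bound several would rank below genes with counts on both sides, such as Dntt. Of the 12 with the largest fitted values higher in MkP, Ltbp1, Ifi209, Grap2, Serpinb10, St8sia6, Mcpt8, Slc14a2, Lmln and Myadml2 were at 0 in all LT-HSC libraries, and Kcnj5, Prss34 and Ms4a2 had 1 or 2 counts there. Ltbp1, which binds latent TGF-beta, had 24.0, 47.7 and 27.7 CPM in MkP and was at least 372.8-fold higher in MkP; V617F LT-HSC held 1.90 ± 0.749 CPM (SD, n = 3). Kcnj5 had 16975 counts in all over the MkP libraries and 2 over the LT-HSC libraries, and 89.0 CPM in its lowest MkP library. Grap2, an adaptor of collagen receptor signalling in platelets, had 6.71, 35.0 and 32.9 CPM in MkP, at least 279.7-fold higher on the same floor. In V617F mice Grap2 averaged 14.5 ± 2.80 CPM in MkP and 1.32 ± 1.29 CPM in LT-HSC (SD, n = 3 each). Slc14a2, a urea transporter, had 27.0, 0.0748 and 17.3 CPM in MkP. Lmln rested on MkP library 31, with 0.252, 33.1 and 0.327 CPM in MkP, and was lost without it or any LT-HSC library (adjusted p up to 0.117). Lmln and Myadml2 did not recur in the V617F libraries alone (log2 differences 0.29 and -0.03), whereas the other 10 did.

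Among the 12 with the largest fitted values lower in MkP, Sult1a1, Hid1, Efna1, Tmem37, Plxna4os1, Pde1b, Gsta4, Eps8l2 and Fgd5 were at 0 in all MkP libraries, and Tinagl1 and Procr had 1 count. Efna1 had 180.2, 39.4 and 72.8 CPM in LT-HSC. Hid1, which serves secretory granules, had 11.2, 157 and 150.0 CPM in LT-HSC. On the floor of 3 counts per library, which covers counting error only, Efna1 was at least 1177-fold and Hid1 at least 1280-fold lower in MkP. In V617F mice Efna1 averaged 0.333 ± 0.252 CPM in MkP and 52.8 ± 12.0 CPM in LT-HSC (SD, n = 3 each). Hid1 averaged 1.78 ± 1.47 CPM in V617F MkP and 56.0 ± 22.8 CPM in V617F LT-HSC. Pde1b, a cyclic nucleotide phosphodiesterase, had 19.5, 59.7 and 40.1 CPM in LT-HSC. Tinagl1, an extracellular matrix protein, had 0, 0 and 0.0327 CPM in MkP, against 67.1, 154 and 114 CPM in LT-HSC. All 12 recurred in the V617F libraries alone and held with any WT library left out. Plxna4os1 is an antisense RNA, and without stranded counting its reads cannot be told from those of its partner.

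In the V617F libraries, which share none with the WT comparison, the WT differences were measured again. In the 12-library fit 54 genes (0.378%) were higher and 102 (0.714%) lower in V617F MkP than in V617F LT-HSC; with the 6 V617F libraries alone, and hence their own smaller spread, 1069 (7.89%) and 1903 (14.0%) were. Leaving out any 1 V617F library took the 12-library counts to 17 to 23 and 12 to 33. Of the 331 genes higher in WT MkP, 309 (93.4%) had the same sign in V617F mice, beside 46.8% of all tested genes, and 239 (72.2%) were called the same way with the V617F libraries alone. Of the 940 lower in WT MkP, 892 (94.9%) had the same sign, beside 53.2% of all tested genes, and 549 (58.4%) were called the same way. No gene was called in opposite directions. Read the other way, 22.4% of the V617F higher calls and 28.8% of the lower calls were called in WT. V617F LT-HSC are labelled male and V617F MkP female, so sex and population cannot be told apart there; outside X and Y, 236 of 325 higher and 533 of 902 lower WT calls were called again.

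**Figure D5:**
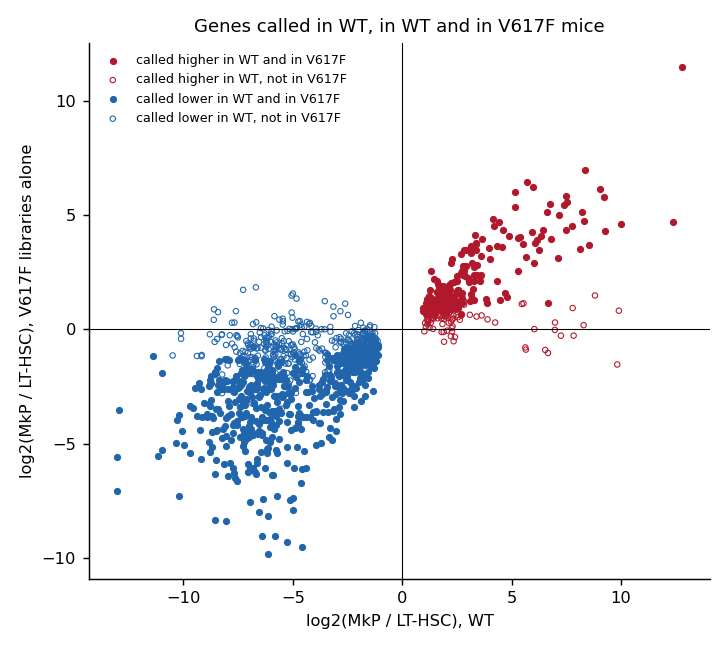
log2(MkP / LT-HSC) in WT (x axis, with genes at 0 in a population as a bound) against the same in the V617F libraries alone (y axis) for 1231 genes called in WT and tested in V617F; filled points are also called in V617F, open rings are not. No filled point lies in the upper left or lower right: of the WT calls, 239 higher and 549 lower were called in the same direction.

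The WT and V617F differences were tested against each other in the 12-library fit. It called 65 genes (0.455%), 61 with a WT minus V617F log2 difference below 0 and 4 above. Of the 65, 52 were at 0 in all WT MkP libraries and 3 in all WT LT-HSC libraries, and 60 were also called lower in WT MkP. The count rests on single libraries: it was 0 in edgeR without any one of the V617F LT-HSC libraries (885 to 1015 genes then had an unadjusted p under 0.05, against 1250 with all 12 libraries), 15, 8 and 22 without V617F MkP library 1, 2 and 3, 219, 117 and 141 without WT MkP library 30, 31 and 32, and 187 and 118 without WT LT-HSC library 30 and 31. For the WT counts themselves, leaving out LT-HSC library 32 moved the number of genes higher in MkP to 521, against 331 with all libraries. Of 138 called genes that are list members or among the largest differences, 80 were called with every WT library left out in turn.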

How the data were processed

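RNA of sorted mouse bone marrow cells was measured by SMART-Seq v2 or v4 sequencing, per the labels' protocols. The authors' deposited files hold raw counts of reads per gene for 24454 genes; STAR 2.5.2a, R 3.4.2, limma and the mm10 build are named in the submitters' processing notes, and the counting step and strand setting are not given in the sources used here. No column belonged to another series. CPM were computed here on totals scaled by the trimmed mean of M values (TMM). The 12 SMART-Seq v2 libraries were fitted together in edgeR 4.0.16 (R 4.3.3), with genes kept by filterByExpr, a mean for each group, the quasi-likelihood F test and Benjamini-Hochberg adjustment over all tested genes at 0.05. The V617F libraries alone and the CD41 libraries (SMART-Seq v4) were fitted the same way. DESeq2 1.42.0, limma-voom (limma 3.58.1), other filters and scalings, a replicate block and leaving out each library were alternatives. A gene at 0 in a population has a floor of 3 counts per library (0.0828 CPM in MkP and 0.0889 CPM in LT-HSC), which covers counting error only, and bounds are linear CPM ratios; reads are not counted as molecules. Fits were tested on simulated counts, given a wider spread in WT than in V617F libraries. Directions and sizes of the changed genes were recovered, and most changed genes were not called by edgeR or limma-voom. Every tool called more unchanged genes than its adjusted p allows, DESeq2 the most. The simulated WT spread was well below the dispersion of 1.17 in the 6 WT libraries, so the fits were not tested at the spread of the data. The largest differences named are the 12 per direction with the largest fitted log2 difference among called, non-overlapping genes with at least 10 CPM in the higher population, without predicted genes, pseudogenes and small RNA genes; list members are named by smallest adjusted p, by role group or for being at 0 in a population. The comparison, its lists and its tests were chosen with earlier results of these data known, so their counts are not independent evidence. Promoters are RefSeq windows of GRCm38.p6 matched by gene identifier, for 11177 of the tested genes. Some items counted among the calls and lists are not reported here by name.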

Additional observations from a re-analysis of the deposited data

Results flagged for a closer look

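For 9 named genes the MkP minus LT-HSC log2 difference in WT minus that in V617F passed the threshold in edgeR's test of the difference (adjusted p under 0.05), where 65 of 14281 genes passed. The fitted values are large because 1 WT population was at 0 or near 0, and they depend on the prior count, so the V617F levels show the contrast better. Below 0 were Plxna4os1 (-10.69), Ifit3 (-10.01), Sult1a1 (-9.87), Fgd5 (-9.21), Tinagl1 (-7.42) and Procr (-5.92), all lower in MkP in both genotypes and at 0 or 1 count in WT MkP. In V617F mice Procr averaged 0.651 ± 0.179 CPM in MkP and 90.6 ± 14.1 CPM in LT-HSC, and Tinagl1 averaged 0.819 ± 0.352 CPM in MkP and 40.4 ± 8.61 CPM in LT-HSC (SD, n = 3 each). Above 0 were Ltbp1 (9.34) and Serpinb10 (7.75), higher in MkP in both genotypes and at 0 in WT LT-HSC, and Dntt (11.39), which was higher in MkP in WT and averaged 0.367 CPM in V617F MkP and 1.09 CPM in V617F LT-HSC. None of the 9 was called in the difference when any 1 of the V617F LT-HSC libraries was left out.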

How the results depend on the processing

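No called result changed direction under the alternatives run, but the number of calls moved. The median of the endothelial and stromal list, which had no call, was -2.72 as fitted and 0.66 with genes at 0 at their bound. Genes higher and lower in WT MkP numbered 792 and 2011 with DESeq2, and 505 were higher with limma-voom; a filter of 5 CPM in 3 libraries left 572 lower. With the 6 WT libraries alone there were 7 higher and 7 lower with edgeR, 190 and 473 with DESeq2 and 38 and 127 with limma-voom. Leaving out 1 WT library gave 244 to 521 higher and 757 to 1297 lower. In V617F the 12-library fit gave 199 higher and 494 lower with DESeq2, 89 and 217 with limma-voom and 1069 and 1903 with the V617F libraries alone, and 17 to 23 and 12 to 33 with 1 V617F library left out. The difference between genotypes held 523 genes with DESeq2 and 0 to 219 with 1 library left out, and the CD41 comparison 1215 to 7082. The cause of these shifts was not tested. The common dispersion was 0.619 over the 12 libraries, 1.17 in the 6 WT libraries and 0.112 in the 6 V617F libraries. Of 138 called genes of the lists and the largest fitted differences, DESeq2 called all 138, limma-voom 127 and the 6 WT libraries alone 10 of 130 that could be tested. The WT libraries share numbers. Same-numbered libraries deviated from their group means with correlations of -0.0324, -0.00671 and 0.0237, and not every library correlated best with its own number. With means of only 3 libraries and a wide spread, these values cannot show whether the numbers pair the libraries. With the replicate block 670 genes were higher and 1525 lower in WT MkP, 242 differed between genotypes, and the 6 WT libraries alone gave 1 and 5. Of the lower calls at 0 in WT MkP, 245 lay under 5 CPM and 188 at 5 to 20 CPM in LT-HSC. With all libraries thinned to the smallest total, the difference in genes detected was -1364, against -1369.67 without thinning. The part that detection plays in a 0 at these levels was not tested.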
